A study of Mus musculus with 3 samples.

Results

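A set of 10 genes of fat absorption was examined in open chromatin profiles of the fetal mouse gut: the apolipoprotein genes Apoa1, Apoc3, Apoa4, Apoa5 and Apob, the lipoprotein assembly gene Mttp, the fatty acid carriers Fabp1 and Fabp2, and the triglyceride synthesis genes Dgat1 and Dgat2. They were listed for their role in lipid handling. Their chromatin was taken as the called peaks that overlap the gene or the 50 kb on each side of it. The 10 genes lie at 7 loci, because Apoa1, Apoc3, Apoa4 and Apoa5 form 1 cluster whose windows overlap. Peaks that overlapped by at least 1 bp were merged across libraries, which gave 30 regions at these loci out of 33564 in the series.

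The series holds 3 ATAC-seq libraries of small intestinal epithelium from embryos at stage E16.5. In ATAC-seq the transposase Tn5 cuts accessible DNA, and a peak marks where cuts pile up. The control group has 1 library, labelled Hnf4gCrispr/+, so it carries 1 mutated copy of Hnf4g and is not a wild type. The double knockout (DKO) group has 2 libraries, replicates 1 and 2, labelled Shh-Cre; Hnf4af/f; Hnf4gCrispr/Crispr. There the Cre driven from the Shh gene deletes the floxed Hnf4a and both copies of Hnf4g are mutated. All 3 libraries came from cells captured by the epithelial surface protein EpCAM. The labels do not say whether embryos were pooled or how the DKO replicates relate, so the spread between those replicates may be technical.

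HNF4A and HNF4G are nuclear receptors that bind as dimers to short repeats around the letters CAAAG, and apolipoprotein genes are among their textbook targets in liver and intestine. In the enterocyte, absorbed fatty acids are carried by FABP1 and FABP2, rebuilt into triglyceride by DGAT1 and DGAT2, and loaded by MTTP onto apolipoprotein B. The particle also takes up apolipoproteins A-I, A-IV and C-III before it is secreted as a chylomicron. APOA5 is a liver product that promotes the clearance of triglyceride from plasma.

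The control list held 16977 peaks and the DKO lists held 18268 (replicate 1) and 26648 (replicate 2), and read depth is unknown. Each peak has a score of unstated meaning. Scores were therefore turned into a percentile rank within their own library, in which 50 is the middle of that list. With a single control library no test of the genotype was made, and the difference between the DKO replicates is the only replicate error. A missing peak says that no call was made and leaves the state of the chromatin unknown. In bulk samples, fewer cells with an open site and less cutting per cell cannot be told apart. Start site peaks (within 1 kb) were found at 2, 4 and 3 of 5 epithelial marker genes in the control and DKO replicates 1 and 2, and at 1, 3 and 3 of 18 markers of mesenchyme, endothelium, blood, enteric neurons and liver. Vim, a mesenchymal marker, had such a peak in both DKO libraries and not in the control, at low ranks of 9.7 and 8.98. The neuronal Elavl4 (ranks 38.4 and 69.8) and the epithelial Cldn7 (ranks 83.6 and 92.5) were called in the same way. Of the other mesenchymal markers, Tbx18 had one in the control (rank 17.0) and DKO replicate 2 (rank 14.2), and Acta2 in DKO replicate 1 alone (rank 38.4). None of the endothelial, blood or liver markers had one in any library. The part of other cell types in the results was not tested. Hnf4a itself had 2, 3 and 4 peaks in its body, and 1 of its 2 start sites had a peak in each library, which does not check the deletion. Hnf4g could not be placed. Peaks on the Y chromosome numbered 2, 24 and 40 in the same order. That difference runs along genotype, so embryo sex cannot be told apart from genotype here, and it was not tested. All 10 genes lie on autosomes, which does not remove this limit.

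The peaks are on the mm9 assembly, per the submitters' processing notes, whereas the gene table used here is for GRCm38. Each locus was therefore shifted by the distance that put most regions on the start sites of surrounding genes, with the 10 genes left out. The fit gathered 57 region and start site pairs at Dgat2 against 12 at the best rival distance, and 15 against 11 at Dgat1, where it was weakest. Fits from single libraries or over 10 Mb lay within 27 to 172 bp of the distances used. Outside Dgat1, positions relative to genes are given to about 200 bp. At Dgat1 a fit over 2 Mb gave another position 1664270 bp away, with 6 pairs against 5, so all statements on Dgat1 depend on the 5 Mb fit. Exon structure was not used here.

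Promoter sequences from RefSeq (GRCm38.p6) were found for 7 of the 10 genes, and none for Apoc3, Dgat1 and Dgat2. Each runs from 250 bp before to 50 bp after the start, and 4 are shown with GRCm38.p6 coordinates, whereas all peak positions are on mm9. Fabp2 is the gene whose start was called in the control alone, and Mttp is the gene with a RefSeq start that was called in every library. Apoa4 and Apob hold HNF4-like letters but had no start site peak. Capitals mark matches to CAAAGNNCA on either strand, where N is any base.

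Fabp2, chr3:122894822-122895121, plus strand: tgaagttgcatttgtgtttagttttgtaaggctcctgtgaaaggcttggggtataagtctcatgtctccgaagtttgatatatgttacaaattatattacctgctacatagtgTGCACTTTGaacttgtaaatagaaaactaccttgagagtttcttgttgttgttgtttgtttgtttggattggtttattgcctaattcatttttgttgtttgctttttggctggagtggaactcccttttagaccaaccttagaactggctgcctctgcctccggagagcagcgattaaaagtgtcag
Mttp, chr3:138143369-138143668, minus strand: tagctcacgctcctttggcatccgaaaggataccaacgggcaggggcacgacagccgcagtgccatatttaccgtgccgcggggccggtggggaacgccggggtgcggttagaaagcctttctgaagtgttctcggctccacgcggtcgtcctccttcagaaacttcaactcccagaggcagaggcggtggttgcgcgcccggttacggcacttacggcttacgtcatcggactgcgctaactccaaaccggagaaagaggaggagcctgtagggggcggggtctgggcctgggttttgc
Apoa4, chr9:46240594-46240893, plus strand: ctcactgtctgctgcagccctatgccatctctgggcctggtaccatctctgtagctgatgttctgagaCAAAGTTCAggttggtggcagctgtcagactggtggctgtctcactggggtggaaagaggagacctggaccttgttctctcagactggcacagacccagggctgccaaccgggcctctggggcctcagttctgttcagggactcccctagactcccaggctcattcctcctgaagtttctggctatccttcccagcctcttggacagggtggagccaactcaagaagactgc
Apob, chr12:7977427-7977726, plus strand: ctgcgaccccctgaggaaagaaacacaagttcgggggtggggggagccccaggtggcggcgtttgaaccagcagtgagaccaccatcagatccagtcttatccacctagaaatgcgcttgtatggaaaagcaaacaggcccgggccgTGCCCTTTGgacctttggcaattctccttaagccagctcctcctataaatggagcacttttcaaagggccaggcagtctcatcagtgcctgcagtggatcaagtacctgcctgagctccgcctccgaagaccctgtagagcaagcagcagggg

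The letters CAAAGTCCA or CAAAGTTCA occurred on either strand in the promoter of 1 of the 7 genes, Apoa4, where CAAAGTTCA lies at positions -182 to -174 relative to the start. Of all 32817 promoters in the table, 0.862% held them. The looser CAAAGNNCA, which includes the former, was present in Apoa4, Apob and Fabp2, and in 6.36% of all promoters. In Fabp2 the match reads TGCACTTTG and lies at -137 to -129. In Apob it reads TGCCCTTTG and lies at -103 to -95. The Mttp, Apoa1, Apoa5 and Fabp1 windows held no such match. Fabp2, Apob and Fabp1 also held TTTATNG, letters bound by the intestinal factors CDX1 and CDX2, 1 time each in Fabp2 and Apob and 3 times in Fabp1, against 10.9% of all promoters with any. For other gut factors, 1 string of letters each was searched on both strands, and none of these strings was found in the 7 promoters. Variants of the strings were not searched, so sites of these factors may still be present. AGATAAG, read by GATA4 and its relatives, occurred in 3.05% of all promoters. TGTTTAC of the FOXA factors occurred in 3.65%. TGANTCA of AP-1 occurred in 7.81%. GTTAATNAT of HNF1 occurred in 0.801%. These are matches of letters only.

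Fabp2 was the only one of the 10 genes whose start was called in the control and in neither DKO library. A peak at a gene start was called at 4 of the 10 genes in the control, namely Mttp, Fabp2, Dgat1 and Dgat2, and at 3 in each DKO replicate, which lacked Fabp2. This order depends on the window, since 4, 4 and 5 genes had a peak within 2500 bp in the control and DKO replicates 1 and 2. The added genes are Apoa1 in both DKO replicates and Apoc3 in DKO replicate 2, through the same DKO-only region at Apoa1. With the 2 Mb fit, which moves Dgat1, the counts within 1 kb were 3, 2 and 2. The other 6 genes, Apoa1, Apoc3, Apoa4, Apoa5, Apob and Fabp1, had none within 1 kb in any library. Among the 23167 other genes that could be placed, 33.2% had a start site peak in the control. The DKO values were 38.0% (replicate 1) and 39.8% (replicate 2). A start called in the control alone was found for 1.44% of those genes, and a start called in both DKO libraries alone for 5.68%, the latter for 0 of the 10. The starts of those other genes took part in fitting their own positions, which was not so for the 10. This could raise the shares of the other genes. Because strand was not at hand for Apoc3, Dgat1 and Dgat2, both ends of those genes were searched. Over the 7 genes with a RefSeq start, the counts were 2 in the control and 1 in each DKO replicate.

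**Figure D1:**
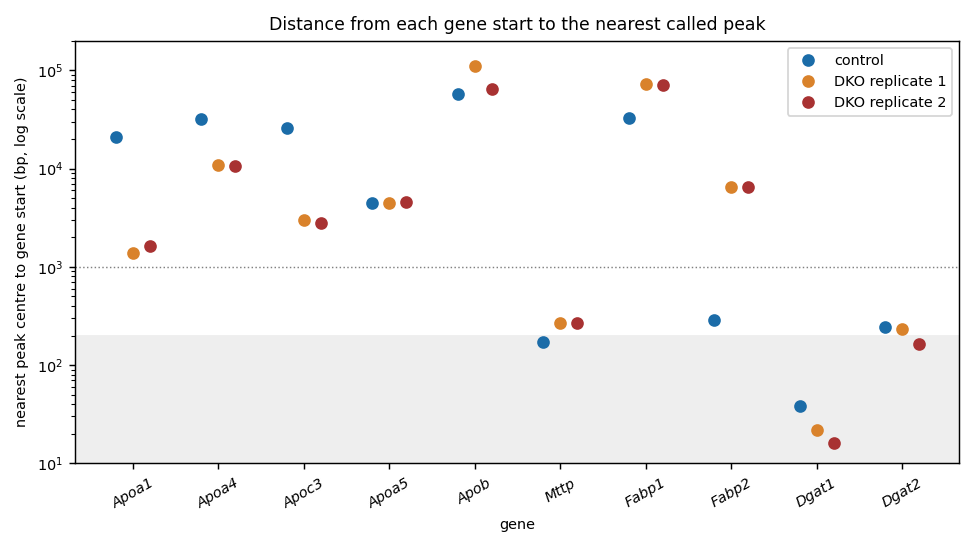
Distance in bp (log axis) from the start of each gene to the centre of the nearest called peak, by library; for Apoc3, Dgat1 and Dgat2 the nearer gene end is used. The dotted line is 1 kb and the grey band marks distances under 200 bp, which the fitted positions do not resolve. Fabp2 is near 0.287 kb in the control and 6.5 kb in the DKO libraries, whereas Apoa1 is at 21.2 kb in the control and under 2 kb in the DKO libraries.

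At Fabp2, which encodes the intestinal fatty acid binding protein, the control and the DKO libraries were called at different places. The control peak at chr3:122597982-122598582 was centred 287 bp inside the gene from its start. It had a score of 23, a rank of 58.8, and the nearest peak of each DKO library was 6.17 kb away. The DKO libraries instead had a peak 6.48 kb before the start, at chr3:122591209-122591814. Its scores were 38 in DKO replicate 1 and 42 in DKO replicate 2, with ranks of 80.0 and 87.2. The control had no peak there, and its nearest was the one at the Fabp2 start. At the precision of the fit, the control peak lies on or just after the printed promoter. The fitted gene start is at 122597994, so TGCACTTTG, at -137 to -129, lies outside this peak at the fitted position. That distance is within the 200 bp that the fit does not resolve. Another region 29.2 kb after the start, 138 bp from the start of 4933405D12Rik, had ranks of 91.1 (control), 90.9 (DKO replicate 1) and 94.5 (DKO replicate 2). That neighbouring region was called in all 3 libraries, whereas the calls at and just before Fabp2 were not shared. DKO replicate 2 alone had a peak of rank 51.4 at position -34225 bp from the start.

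At Mttp, the transfer protein gene, the start was called in every library and a peak inside the gene was not. The region at chr3:137806282-137806979 had a score of 35 (rank 87.0) in the control, 56 (rank 93.8) in DKO replicate 1 and 50 (rank 92.5) in DKO replicate 2. It was also centred 122 bp from the start of Trmt10a, a tRNA methyltransferase gene, so it cannot be assigned to 1 of the 2 genes. The control rank minus the DKO ranks was -6.87 and -5.57 points, and the DKO replicates differed by 1.30 points. With lists of equal length the differences were -6.40 and -1.31 points, and the replicates differed by 5.09 points. Inside Mttp, 9732 bp after the start, the control had a peak at chr3:137796378-137796978 with a score of 25 and a rank of 65.7. The nearest DKO peaks were 9.40 kb away. A region at position -42196 bp from the start, in 4930579F01Rik, was called in both DKO libraries only, with low ranks of 5.61 and 25.4.

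Fabp1, the carrier shared by liver and intestine, and Apob, the structural protein of the chylomicron, had the fewest peaks. In the Fabp1 window a single region was called, 32.8 kb before the start at chr6:71116816-71117416, in the control alone and with a low rank of 22.8. The nearest DKO peaks to the Fabp1 start were 71.8 kb and 71.7 kb away in replicates 1 and 2. In the Apob window the only call was in DKO replicate 2, 65.0 kb beyond the start, with a rank of 19.8. The peak nearest to the Apob start lay 57.7 kb away in the control, 110 kb in DKO replicate 1 and 65.0 kb in DKO replicate 2. No library therefore had a call within the body of either gene.

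The apolipoprotein cluster on chromosome 9 had 4 regions, and none lay within 1 kb of a start of its 4 genes. Apoa1 encodes the main protein of high-density lipoprotein. Both DKO libraries had a peak at chr9:46037787-46038623, centred 1.51 kb after the Apoa1 start and 328 bp from the end of the gene. Its scores were 17 (rank 19.6) in DKO replicate 1 and 21 (rank 47.8) in DKO replicate 2, and DKO replicate 1 minus DKO replicate 2 was -28.3 points, so the replicates did not rank it alike. The nearest control peak lay 22.0 kb from it. The distance from the nearest peak centre to the Apoa4 start, which carries CAAAGTTCA, was 32.3 kb in the control, 10.8 kb in DKO replicate 1 and 10.6 kb in DKO replicate 2. For Apoc3 the distances to the nearer gene end were 25.6, 3.03 and 2.79 kb, and for Apoa5 they were 4.50, 4.46 and 4.58 kb. These DKO values at Apoa4 and Apoc3 refer to the same region as at Apoa1. Near Apoa5, regions 94 bp from the start of Zpr1 and 118 bp from that of Bud13 were called in all 3 libraries, with ranks of 45.5, 58.6 and 40.2 at Zpr1 and 62.3, 63.7 and 47.8 at Bud13. With lists of equal length DKO replicate 2 ranked 6.08 at Zpr1 and 18.1 at Bud13. A region 21.2 kb before Apoa1, inside Sik3, was called in the control (rank 28.9) and DKO replicate 2 (rank 8.98).

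**Figure D2:**
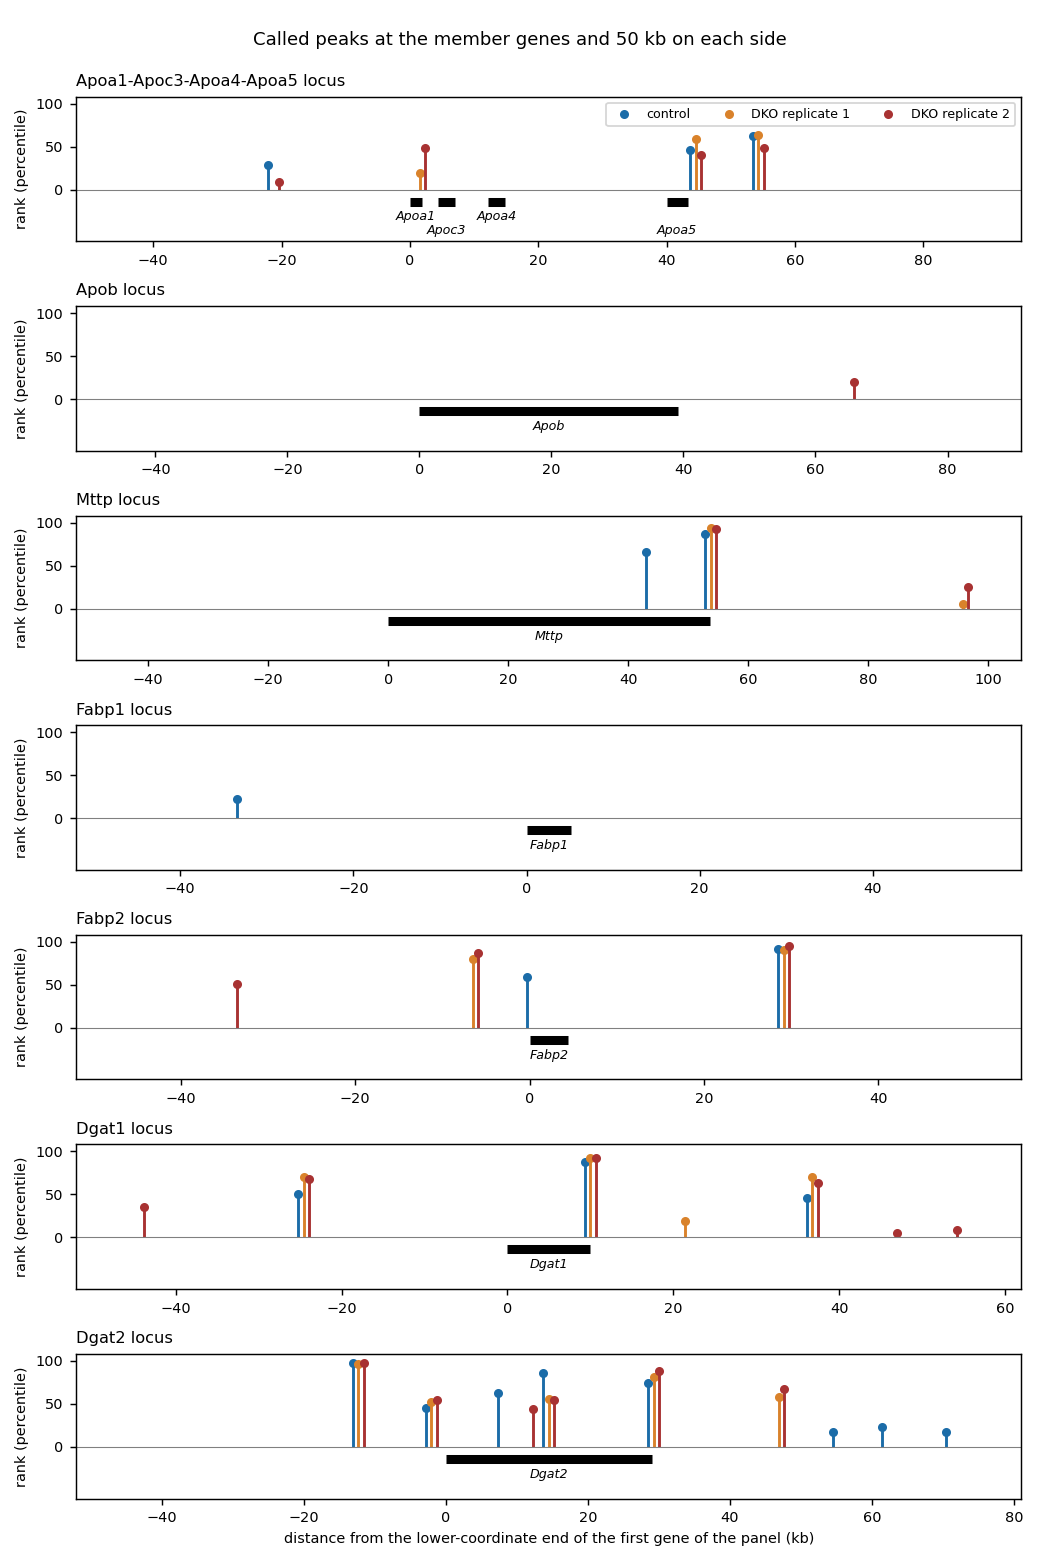
Peaks called at the 7 loci. The x axis is the distance in kb from the lower-coordinate end of the first gene of each panel, the y axis is the percentile rank of the score within its library, black bars are gene bodies, and the 3 libraries are drawn slightly offset so that peaks of 1 region stand side by side. Blue control peaks of rank above 50 stand alone at the Fabp2 start, inside Mttp and inside Dgat2. Another 4, of rank below 25, stand alone before Fabp1 and near Mogat2. Of the peaks shared by the DKO libraries alone, the one before Fabp2 has the highest ranks, 80.0 and 87.2.

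Dgat2 and Dgat1 encode the enzymes of the last step of triglyceride synthesis, and both had a peak in every library at the higher-coordinate gene end. At Dgat1 that region, chr15:76342089-76342749, had scores of 36 (rank 88.2) in the control, 52 (rank 92.0) in DKO replicate 1 and 49 (rank 92.0) in DKO replicate 2. At Dgat2 the region chr7:106331044-106331723 had scores of 28 (rank 74.2), 39 (rank 81.3) and 44 (rank 88.8) in the same order. The control rank minus the DKO ranks was -3.86 and -3.87 points at Dgat1, with -0.0067 points between the DKO replicates. At Dgat2 it was -7.12 and -14.6 points, with -7.45 points between the replicates. With 16977 peaks in each list the differences were -3.25 and 0.68 points at Dgat1, so the control no longer lay below both, and -5.70 and -8.17 points at Dgat2.

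Inside Dgat2 a region ranked higher in the control. The region chr7:106316316-106316975, 14.5 kb from the lower-coordinate end, had scores of 34 (control), 26 (DKO replicate 1) and 23 (DKO replicate 2). Its rank was 85.6 in the control against 55.7 and 54.7, so the control stood 29.8 and 30.9 points above the DKO replicates, which differed from each other by 1.03 points. With lists of equal length the control stood 33.2 and 56.7 points above DKO replicates 1 and 2, which then differed by 23.5 points. This was the only one of the 11 regions called in all 3 libraries that differed by at least 25 points from both DKO libraries. A further peak in the body, at chr7:106309990-106310590, was called in the control alone with a score of 24 and a rank of 62.3. DKO replicate 2 had a peak of rank 44.1 in the body as well, and that replicate's nearest peak was 2.77 kb from that control peak. The Dgat2 window also holds the end of Mogat2, an enzyme that feeds diacylglycerol to the DGAT enzymes. There the control alone had 3 weak peaks, with ranks of 17.0, 22.8 and 17.0, centred 3284 to 10196 bp from an end of Mogat2. Between Dgat2 and Mogat2, 17804 bp from the higher-coordinate end of Dgat2, both DKO libraries had a peak of rank 58.6 and 67.7 that the control lacked.

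The Dgat1 window had 7 regions and no control-only or DKO-only region. The shared regions 80 bp from an end of Hsf1 and 14 bp from an end of Slc52a2 ranked lower in the control, at 50.4 and 45.5, than in DKO replicate 1, at 70.2 for each, and DKO replicate 2, at 67.7 and 63.0. With lists of equal length this held against DKO replicate 1 only, since the control rank minus that of DKO replicate 2 was 1.15 points at Hsf1 and 3.54 points at Slc52a2. The other 4 were called in 1 DKO library each, with ranks from 4.72 to 35.8.

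Over all 30 regions, 11 (36.7%, Wilson 95% interval 21.9 to 54.5%) had a peak in every library, against 30.9% of all regions of the series. Control-only regions, with a control peak and no DKO peak, numbered 7 (23.3%, 11.8 to 40.9%), against 13.0% of all regions. DKO-only regions, called in both DKO libraries and not in the control, numbered 4 (13.3%, 5.31 to 29.7%), against 16.0%. The remaining 8 were called in DKO replicate 2 alone (6), in DKO replicate 1 alone (1) or in the control and DKO replicate 2 (1). All 3 intervals include the value over the series. They treat the 30 regions as independent draws, which regions clustered at 7 loci are not, so nothing is concluded from them on a difference from the other regions. The intervals cover counting error only, and 4 of the 7 control-only regions lie in the single Dgat2 window. Control-only regions were found at Fabp2, Mttp, Fabp1 and Dgat2, and 3 of the 7, those at the Fabp2 start, in Mttp and in Dgat2, ranked above 50. DKO-only regions were found at Fabp2, Mttp, Dgat2 and the Apoa1 cluster, and 2 of the 4, those near Fabp2 and Dgat2, ranked above 50 in both DKO libraries.

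**Figure D3:**
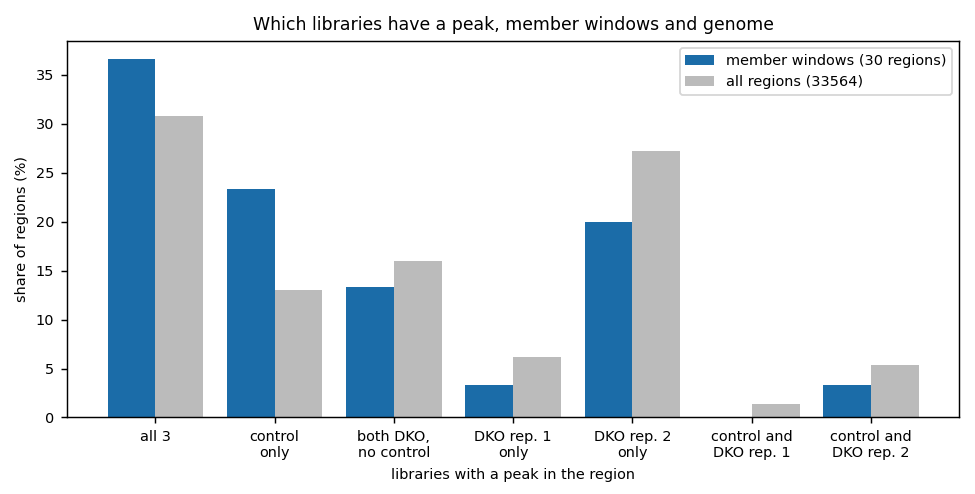
Share of regions in percent (y axis) by which libraries have a peak (x axis), for the 30 regions at the fat absorption genes (blue) and all 33564 regions (grey). The largest gap is in regions called in the control alone, 23.3% against 13.0%.

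Ranks could be compared at the 11 regions with a peak in every library. Besides the region inside Dgat2, the largest differences were at Hsf1 and Slc52a2 in the Dgat1 window, where the control rank minus the DKO mean was -18.5 and -21.1 points. Over the 11 regions, the control rank minus the mean DKO rank had a median of -3.87 points, against -5.05 over all 10355 such regions of the series. DKO replicate 1 minus DKO replicate 2 had a median of 1.03 points, against -4.80. The control was above both DKO libraries at 1 of the 11 regions, against 22.2% of all, and below both at 6, against 51.1%. It was at least 25 points above both at 1, against 2.63%, and at least 25 points below both at 0, against 12.3%. In 9 of the 11 regions the centre lay within 250 bp of an end of a protein-coding gene. Each locus was shifted to put regions on the start sites of surrounding genes, so this closeness is partly built in. The share over all shared regions was not counted, and nothing is concluded from it. Ranks depend on list length, and with 16977 peaks in each library the median for the 11 regions was 0.21 points, of the opposite sign. The control was then above both DKO libraries at 3 of the 11 regions, below both at 2 and between them at 6.

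**Figure D4:**
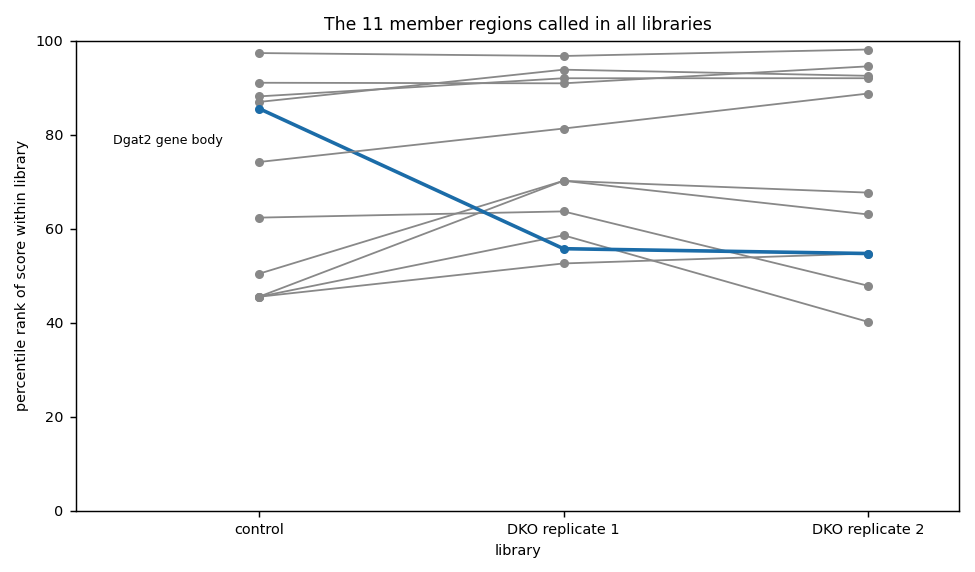
Percentile rank of the score (y axis) in each library (x axis) for the 11 regions called in all 3 libraries; each line is 1 region. The blue line, the region inside Dgat2, goes from 85.6 in the control to 55.7 and 54.7 in the DKO replicates, and all other lines are grey.

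A wider list of 40 fat absorption genes without the 10 was counted for comparison, and 38 could be placed. The list also holds regulators such as Gata4 and Hnf4a, the latter targeted in the DKO and with a start called in every library. Of 32 with a RefSeq start, 17 had a start site peak in the control, against 16 and 17 in DKO replicates 1 and 2, and 14 had one in every library. The start was called in the control alone at Pla2g12b (rank 28.9), which acts in lipoprotein secretion, and at Nr1h4 (rank 50.4), the bile acid receptor. It was called in both DKO libraries alone at Slc27a4, a fatty acid transporter, with ranks of 29.5 and 19.8, and at Plin2, a lipid droplet coat protein, with ranks of 5.61 and 19.8. These genes were named after their values were seen. Of the 178 distinct regions at the 38 genes outside the windows above, 17.4% were control-only, 16.9% were DKO-only and 39.9% were called in all 3 libraries. Over all regions of the series the shares were 13.0%, 16.0% and 30.9% in the same order, and over the other placed genes a start site peak was found for 33.2%, 38.0% and 39.8% in the 3 libraries. Those other genes took part in fitting their own positions, whereas each listed gene was left out of its own fit.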

How the data were processed

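ATAC-seq peak lists of 3 libraries (1 control, 2 DKO) were used. Each file was deposited with 1 row per peak, a window of 601 bp with a whole-number score in column 5, and the deposited score is not defined in the files. The submitters' processing notes name Bowtie2 2.2.6, MACS 1.4.1, deepTools 2.4.2, FastQC 0.11.3 and mm9, without their roles. Thresholds, duplicate handling and any Tn5 shift are not given in the sources used here, and they could change which weak peaks are listed. Sequencing depth is unknown.

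With Python 3.11.15, pandas 2.3.3 and numpy 2.4.6, peaks were merged (overlap of at least 1 bp), ranked within their library (percent of peaks with a lower score plus ties counted to the middle) and assigned to genes plus 50 kb. Gene positions came from RefSeq (GRCm38.p6), shifted per locus by the distance, within 8 Mb, that gathered most region centres on start sites within 600 bp over 5 Mb. Genes outside the 10 were placed only where that count was at least 1.5 times the rival count, a criterion chosen after the distances were seen that Dgat1 would not meet. No test between genotypes was made. All 10 genes are described, and regions singly if at a start, control-only, DKO-only or 25 rank points from both DKO libraries. Genes, lists and rules were chosen with earlier results of these data known. The alternatives are given in the closing section. HNF4 letters were planned for the peaks, but a genome of their build was not used here, so promoters were searched.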

Additional observations from a re-analysis of the deposited data

How the results depend on the processing

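Equal list lengths (16977 peaks) turned the median rank difference at shared regions from -3.87 to 0.21 points, and left 8 control-only, 3 DKO-only and 11 shared regions. Keeping the top-scoring 50% of each list gave 3 control-only, 4 DKO-only and 7 shared regions and a median of -7.73 points. Control-only regions thus no longer outnumbered DKO-only regions. These DKO-only regions are not the same set as in the full lists, since those at Apoa1 and Mttp dropped out. The 3 control-only regions that remained were those at the Fabp2 start, in Mttp and in Dgat2. They are the ones that ranked above 50, so their staying follows from those ranks. Halving a list also stretches its rank scale, so the median of -7.73 points cannot be set against -3.87. Windows of 10 kb beside the genes gave 3 control-only, 2 DKO-only and 6 shared regions, and windows of 100 kb gave 13 control-only and 7 DKO-only regions and a median of -6.22 points. A start window of 2500 bp gave start site peaks at 5 genes in DKO replicate 2, against 4 in each other library. The genes added, Apoa1 and Apoc3, share the same DKO-only region. Leaving out DKO replicates 1 or 2 in turn gave 5 to 10 DKO-only regions and medians of -6.87 to -3.68 points. DKO-only then means a call in the single DKO library left and none in the control. That is a looser rule than a call in both, so these counts are not comparable with the main one. CAAAGNNCA matched 3 promoters in place of 1. Fitting positions over 2 Mb moved Dgat1 by 1664270 bp, with 6 pairs against 5, and no other locus by more than 71 bp. It gave start site peaks at 3, 2 and 2 genes, 10 shared regions and a median of -5.05 points. Fitting over 10 Mb, chosen after the data were seen, changed none of these counts. The Dgat2 body region moved from 30.4 to 44.9 points at equal lengths. Its 60.7 points with the top-scoring 50% restate the full-list ranks on a stretched scale, since all 3 of its peaks ranked above 50. That value is therefore no separate check. The Apoa1 and Mttp DKO-only regions were not called in any library among the top-scoring 50%, and the latter was not called at equal lengths. Unknown depth limits each missing peak. No paired analysis was possible because the single control carries no replicate number in its label.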

Other observations

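Promoter letters were also counted across the placed genes outside the 10, by which libraries had a start site peak. CAAAGTCCA or CAAAGTTCA occurred in 16 of 432 promoters (3.70%) of genes called in the control alone. It occurred in 0.644% of 1708 promoters called in both DKO libraries alone, in 0.426% of 8688 called in every library and in 0.991% of 15134 called in none. The looser CAAAGNNCA, which the Fabp2 promoter holds, occurred in 12.5%, 4.10%, 4.65% and 7.33% of the same groups. HNF1 letters, at 1.62%, 0.644%, 0.322% and 1.02%, FOXA letters, at 5.09%, 3.69%, 2.34% and 4.06%, and AGATAAG, at 4.17%, 1.70%, 1.73% and 3.73%, were also highest in the control-only group. CDX letters, at 9.72%, 6.91%, 6.79% and 13.0%, and AP-1 letters, at 6.02%, 5.33%, 4.33% and 9.73%, were highest where no library had a peak. The groups rest on 1 control library, a gene can have several promoters, and no test was made.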
